A study of Homo sapiens with 6 samples.

Results

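Keratins of simple and luminal epithelium were measured in a preneoplastic human breast epithelial cell line and in its fluvastatin-resistant derivative. The members were KRT7, KRT8, KRT18, KRT19, KRT80 and KRT81, which are 6 of the 81496 gene symbols in the deposited expression table. They were taken by gene symbol, and where a symbol had several probe sets the probe set with the highest mean over 5 arrays was used. MCF10.AT1 is a preneoplastic member of the MCF10A progression series, derived from MCF10A by HRAS transformation. MCF10.AT1-R was selected from it by exposure to fluvastatin, an inhibitor of HMG-CoA reductase, at doses raised from 1 µM to 20 µM. Both lines were grown in the MCF10.AT1 medium, which holds horse serum, EGF, hydrocortisone and insulin. The labels call the MCF10.AT1 cells untreated, although the treatment text that names the rising fluvastatin doses is attached to the samples of both lines. They do not say whether the resistant cells were in fluvastatin at harvest, so selection and the presence of the drug cannot be told apart. The resistant line is the product of 1 selection, and the replicates, labeled as biological, sample that line and not independent selections.

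Total RNA was profiled on Clariom D arrays, 3 of each line, and the deposited values are log2 values from RMA, which corrects the background, brings the arrays to a shared distribution and summarizes the probes of each set. The names A01 to A03 stand for the MCF10.AT1 arrays, and B02 to B04 for those of MCF10.AT1-R. The correlation between any pair of A01, A02, B02, B03 and B04 was 0.967 to 0.977, whereas A03 correlated with these at 0.780 to 0.795. A03 was removed by the study and is shown apart here, so that the comparison rests on 2 arrays against 3. Precision is limited by this small number of arrays, and an exact permutation test of 2 against 3 arrays cannot give a two-sided p below 0.1. Each of 51457 probe sets that passed a filter on level and variability was tested for a difference between the lines in limma, with Benjamini-Hochberg adjustment over all of them. Of these, 1.2% passed an FDR of 5%, and 0.758% passed it with higher values in MCF10.AT1-R. The fit used a common SD of 0.34, so that every change carries the same standard error of 0.31 on the log2 scale. The adjusted p-values of this fit rest on that common SD and not on the spread of each gene.

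Keratins are intermediate filament proteins that form obligate pairs of a type I and a type II chain. In simple epithelia and in the luminal cells of the breast, the type II keratins KRT8 and KRT7 pair with the type I keratins KRT18 and KRT19, and the cells of the basal layer use KRT5 with KRT14 instead. A keratin chain without a partner is degraded, and the filaments are anchored at desmosomes and hemidesmosomes.

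KRT19 was the member that changed most. It rose 7.54-fold in MCF10.AT1-R, whereas KRT8 rose 2.15-fold. Neither KRT18, at 1.80-fold the parental level, nor KRT7, at 1.24-fold, passed FDR 5%. KRT81 was at 1.54-fold and KRT80 at 1.26-fold, also without passing. Thus 2 of the 6 members were past FDR 5%, both higher, against 0.758% of all tested probe sets. In 5 of the 6 members the resistant arrays were all higher than the parental arrays, against 12.9% of all tested probe sets, the exception being KRT80. The median change of the 6 members was 0.73 on the log2 scale, beside -0.01 over all tested probe sets. All 6 lay above the 95th percentile of the 612 negative control probe sets on each of the 5 arrays, a limit of 2.88 to 3.14. These are bulk RNA measurements, in which more cells with a transcript and more of it per cell cannot be told apart.

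**Figure D1:**
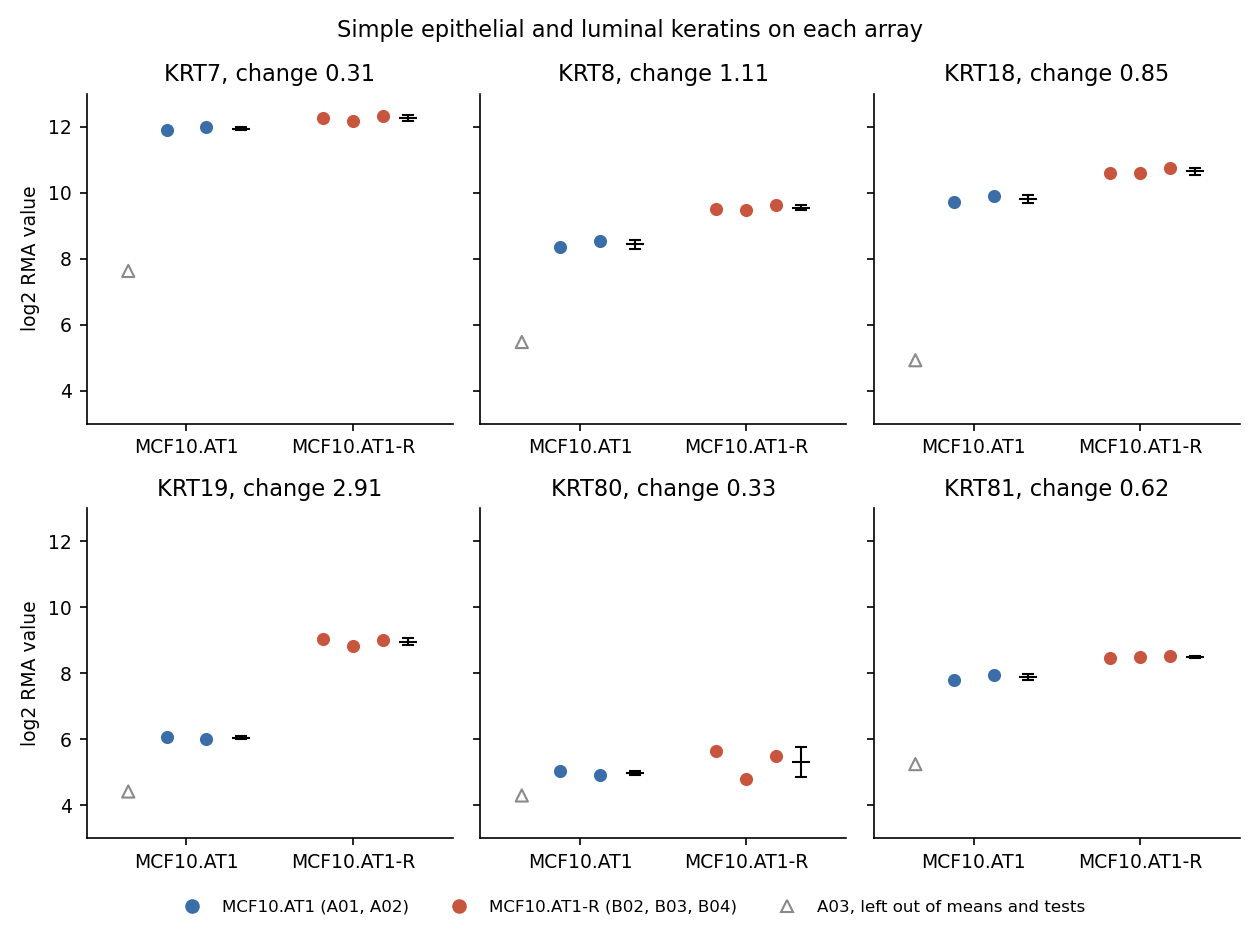
Log2 RMA value (y axis) of each of the 6 keratins on each array of the parental and the resistant line, with the mean and SD beside the points and A03 as an open triangle. KRT19 moved from about 6.05 to 8.97, KRT7 stayed between 11.90 and 12.33 on the 5 arrays, and A03 lay below the other MCF10.AT1 arrays for all 6 genes.

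KRT19 is the smallest keratin, a type I chain of luminal and progenitor cells that lacks most of the tail domain. Its log2 values were 6.08 and 6.02 on the MCF10.AT1 arrays and 9.05, 8.84 and 9.01 on the MCF10.AT1-R arrays. The lines were separated by a gap of 2.75 between the highest parental and the lowest resistant array, many times the spread within either line. The mean was 6.05 ± 0.04 (SD, n = 2) in the parental and 8.97 ± 0.11 (SD, n = 3) in the resistant line. The change was 2.91 (95% interval 2.30 to 3.53, limma adjusted p = 1.41e-17). Over the whole array 27 symbols past FDR 5%, KRT19 among them, rose by at least this much. Leaving out any 1 of the 5 arrays gave a change between 2.87 and 2.98 that stayed past FDR 5%. With A03 counted as MCF10.AT1 the change was 3.46 and no longer passed (adjusted p = 0.0868). On the 5 arrays the adjusted p was much larger under some other settings, with the same change of 2.91. The limma adjusted p was 0.00205 with the filter on level alone and 0.00121 without a filter. It was 0.00533 with a floor at the negative controls. The limma adjusted p was smaller with array weights, 3.58e-19 (change 2.93). It was 6.93e-86 when the variance could follow the level of a probe set.

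KRT8 is the type II keratin of simple epithelia and among the earliest keratins of the embryo. Its log2 values were 8.34 and 8.53 in MCF10.AT1 and 9.51, 9.48 and 9.62 in MCF10.AT1-R. The lines did not overlap, and the gap between them was 0.95. The mean was 8.43 ± 0.14 (SD, n = 2) in the parental and 9.54 ± 0.08 (SD, n = 3) in the resistant line. The change was 1.11 (95% interval 0.49 to 1.72, limma adjusted p = 0.0358). This lies just past the smallest change that the fit called over all probe sets, 1.07. The call was lost when A01, A02, B02 or B04 was left out (adjusted p = 0.510, 0.276, 0.0843 and 0.127), while the change itself stayed between 1.01 and 1.20.

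KRT18 is the type I partner of KRT8 and, with it, the filament of hepatocytes and other simple epithelia. The arrays gave 9.71 and 9.89 in MCF10.AT1 and 10.58, 10.59 and 10.76 in MCF10.AT1-R. All resistant arrays were higher, by at least 0.69. The mean was 9.80 ± 0.13 (SD, n = 2) against 10.64 ± 0.10 (SD, n = 3). The change of 0.85 (95% interval 0.23 to 1.46) did not pass after adjustment (limma adjusted p = 0.244).

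KRT7 is a type II keratin of ductal and glandular epithelia. Its log2 values were 11.90 and 11.98 in MCF10.AT1 and 12.26, 12.15 and 12.33 in MCF10.AT1-R. The resistant arrays were higher by a gap of only 0.18. The mean was 11.94 ± 0.05 (SD, n = 2) against 12.25 ± 0.09 (SD, n = 3), a change of 0.31 (95% interval -0.30 to 0.92, limma adjusted p = 0.838). The interval covers a difference of either sign, up to 0.92. The other probe set with the symbol KRT7 had log2 values of 4.92 and 5.00 in the parental and 4.66, 4.58 and 5.21 in the resistant line. Its arrays overlapped, and its change was -0.14 (95% interval -0.75 to 0.47, limma adjusted p = 0.915).

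KRT81 is a type II keratin of the hair shaft that is also found in breast cancer cells. Its log2 values were 7.82 and 7.95 in MCF10.AT1 and 8.47, 8.51 and 8.53 in MCF10.AT1-R. The resistant arrays were all higher and lay close together. The mean was 7.88 ± 0.09 (SD, n = 2) against 8.50 ± 0.03 (SD, n = 3). The change of 0.62 (95% interval 0.01 to 1.23) did not pass after adjustment (limma adjusted p = 0.585).

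KRT80 is a type II epithelial keratin. On the log2 scale it was at 5.04 and 4.94 in MCF10.AT1 and 5.65, 4.80 and 5.50 in MCF10.AT1-R. It was the only member whose lines overlapped, because B03 lay below both parental arrays while B02 and B04 lay above them. The mean was 4.99 ± 0.07 (SD, n = 2) against 5.32 ± 0.45 (SD, n = 3), with a change of 0.33 (95% interval -0.28 to 0.94, limma adjusted p = 0.835). Its spread among the resistant arrays was the widest of the 6 members, and the change was 0.16 without B02 and 0.59 without B03.

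The calls of KRT18, KRT7 and KRT81 depended on how the variance was modeled. When limma let the variance follow the level of a probe set, 5 of the 6 members passed FDR 5%, all higher, against 1.69% of all tested probe sets. The adjusted p was then 1.2e-28 for KRT18, 3.87e-11 for KRT7 and 0.000142 for KRT81, and it was 0.78 for KRT80. The changes were the same as above, since the variance model alone differed. The filter on variability took the SD over all 5 arrays, which includes the difference between the lines. Within the lines the residual SD was 0.11 for KRT18, 0.08 for KRT7 and 0.06 for KRT81, below the filter limit of 0.18. KRT8 and KRT19, each at 0.10, were below it too, and KRT80 was at 0.37. All members but KRT80 thus passed this filter only through the difference between the lines. The counts of members past FDR 5% and the shares of tested probe sets beside them rest on that filter. With the filter on level alone, this variance model gave a limma adjusted p of 4.61e-05 for KRT18, 0.00896 for KRT7 and 0.0033 for KRT81.

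The changes of possible partner keratins were compared next. The value of each pair on an array was taken as the type II minus the type I log2 value and set against its mean over A01 and A02, because the probe sets of different genes do not share a scale. For KRT8 minus KRT18 this was 0.30, 0.25 and 0.23 on B02, B03 and B04, a difference of changes of 0.26. The SD of this pair was 0.01 over the MCF10.AT1 arrays and 0.03 over the MCF10.AT1-R arrays. For KRT7 minus KRT19 the value relative to A01 and A02 was -2.68, -2.57 and -2.57, so this difference fell by 2.61 on the log2 scale. For KRT8 minus KRT19 it was -1.93, -1.74 and -1.76, with a difference of changes of -1.81. For KRT7 minus KRT18 it was -0.46, -0.58 and -0.57, with a difference of changes of -0.54. In each of these 4 pairs the lines did not overlap, and the exact permutation test gave its smallest possible two-sided p, 0.1. Each difference of changes restates the changes of both genes given above. The share of all gene pairs whose lines do not overlap was not counted.

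**Figure D2:**
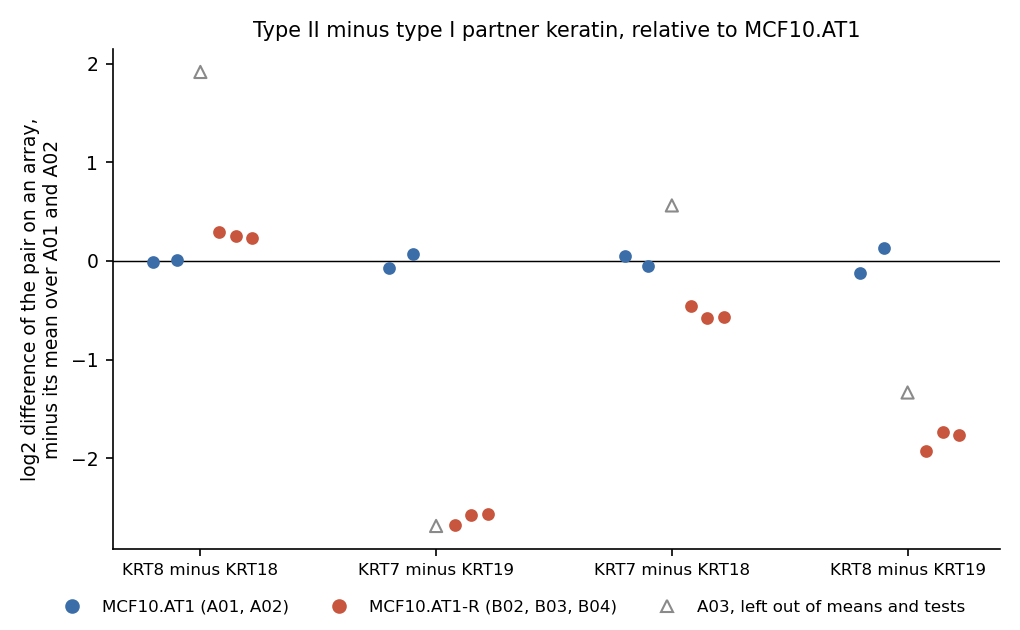
Difference of a type II and a type I keratin on each array (y axis, log2), relative to its mean over A01 and A02, for 4 possible pairs. The 2 pairs with KRT19 moved furthest, by -2.61 with KRT7 and -1.81 with KRT8, whereas KRT8 minus KRT18 moved by 0.26.

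In RefSeq (GRCh38.p14), 5 of the members lie in the type II keratin cluster on chromosome 12 or at its edge and KRT19 lies in the type I cluster on chromosome 17. KRT18 is the exception in type, a type I gene beside KRT8 on chromosome 12, and the annotated spans of KRT8 and KRT18 overlap. KRT80 and KRT7 are next to each other, and KRT81 lies within the keratin cluster between KRT86 and KRT83, with a span that overlaps that of KRT86. On chromosome 17, KRT19 has KRT15 and KRT9 as its neighbors. KRT15, a type I keratin of basal cells, had a change of 0.59 (limma adjusted p = 0.628), and KRT9, a keratin of palm and sole skin, had a change of 0.23 with arrays that overlapped.

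The hair keratins beside KRT81 are close to it in sequence. KRT83 changed by 0.80 and KRT85 by 0.67, with all resistant arrays higher in both, and neither passed FDR 5% (limma adjusted p = 0.308 and 0.505). KRT86 lay within the negative controls on all 5 arrays. Whether probes of one hair keratin also bind transcripts of another was not tested.

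The other keratins give the setting for these values. Of 49 other keratin genes on the array, 38 were tested, and 9 rose while none fell at FDR 5% (0.758% of all tested probe sets were higher). In 24 of the 49, all of them tested, every resistant array lay above every parental array (12.9% of all tested probe sets). In 5 of the 49 every one lay below, and the share of all probe sets in that direction was not counted. The median change was 0.34 over all 49 and 0.50 over those tested, beside 0.73 for the 6 simple and luminal keratins. The 9 that rose were 7 of the 8 basal and stress keratins together with KRT1 and KRT23. KRT1, a keratin of the suprabasal epidermis, rose by 1.10 (limma adjusted p = 0.0366), and KRT23, a type I keratin of epithelia, rose by 1.11 (limma adjusted p = 0.0356). KRT23 was dim, with log2 values of 2.60 and 3.08 in MCF10.AT1, and lay within the negative controls on 1 of the 5 arrays.

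The basal and stress keratins had a median change of 1.79, and all 8 were higher on every resistant array. KRT17, a keratin of basal-like cells and of wounded epidermis, rose by 4.08 (limma adjusted p = 3.63e-35). KRT14, the type I keratin of the basal layer, rose by 2.37, and KRT6C, a keratin of stressed epithelium, rose by 1.95. KRT19 therefore lay between KRT17 and KRT14 in the size of its change, and KRT8 lay below each of the 7 basal and stress keratins that rose.

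**Figure D3:**
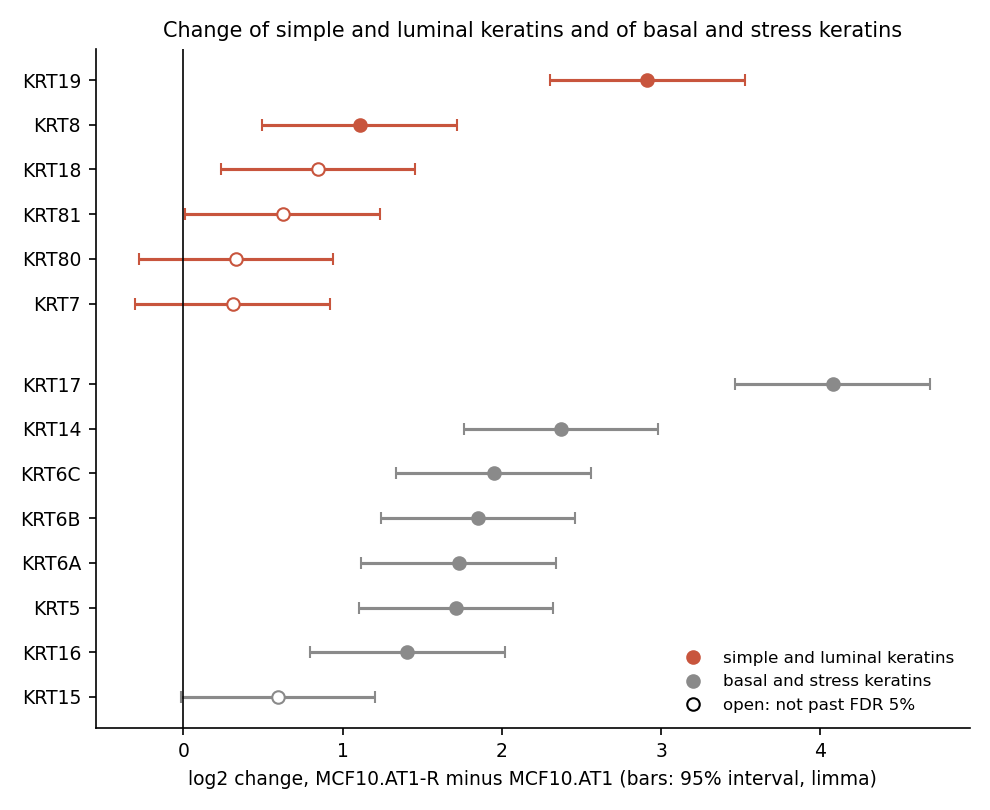
Log2 change from MCF10.AT1 to MCF10.AT1-R (x axis) with its 95% interval from limma, for the 6 simple and luminal keratins and the 8 basal and stress keratins; open points did not pass FDR 5%. KRT19 at 2.91 was exceeded only by KRT17 at 4.08 among the genes drawn, and the intervals of KRT7, KRT80 and KRT15 include 0.

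KRT8, KRT18 and KRT19 have many processed pseudogenes, copies of the spliced transcript scattered over the genome, and these have probe sets of their own. For KRT8, 49 pseudogene probe sets had changes from -0.19 to 1.06 with a median of 0.50, and in 35 of them every resistant array was higher, in 1 every one was lower. For KRT18, 51 probe sets had changes from -0.42 to 0.85 with a median of 0.34, with 24 higher and 1 lower in the same sense. For KRT19, 4 probe sets had changes from -0.10 to 0.17, and all 4 lay within the negative controls on all 5 arrays, so they could show no change. Of the KRT8 and KRT18 copies, 13 and 11 lay within the controls in the same way. Over all tested probe sets, 12.9% were higher on every resistant array, and the share that were lower was not counted. The counts of copies include untested probe sets, so they do not share a base with this percentage. Of the copies of KRT8, KRT18 and KRT19, 41, 38 and 2 were tested, and none passed FDR 5%.

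Split at their median level over the 5 arrays, the KRT8 pseudogene probe sets above it had a median change of 0.61 (n = 24), and the others of 0.36 (n = 25). For KRT18 the values were 0.45 (n = 25) and 0.29 (n = 26). The lower parts hold the 13 KRT8 and 11 KRT18 copies within the negative controls on all 5 arrays, where a change is hard to see. The level was taken over the same 5 arrays as the change. Probe sets of copies of 1 parent share sequence and are not independent of each other. Whether they bind transcripts of the parent gene was not tested. On A03 the copies and the parents went opposite ways. Relative to the mean of A01 and A02, A03 was at -2.96 for KRT8 and at -4.88 for KRT18, while the medians of their pseudogene probe sets were 0.57 and 0.65 higher. In 40 of the 49 KRT8 copies and 41 of the 51 KRT18 copies A03 was above both other parental arrays.

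**Figure D4:**
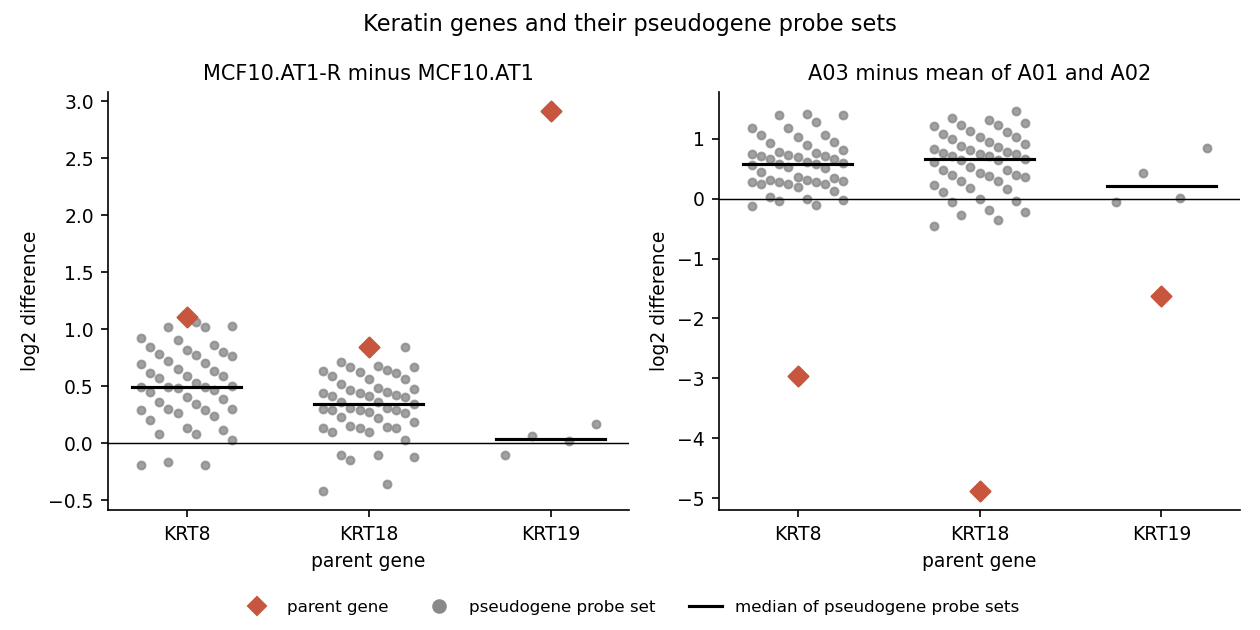
Left, log2 change from MCF10.AT1 to MCF10.AT1-R of each pseudogene probe set (grey points, with their median as a line) and of its parent gene (diamond); right, A03 minus the mean of A01 and A02 for the same probe sets. The medians at the left are 0.50, 0.34 and 0.04 beside parents at 1.11, 0.85 and 2.91, and at the right the parents are all below 0 while the medians are above it. The 4 KRT19 copies lay within the negative controls on all 5 arrays.

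A03 was below A01 and A02 for all 6 members. Its log2 difference from the mean of these was -4.32 for KRT7, -2.96 for KRT8, -4.88 for KRT18, -1.63 for KRT19, -0.68 for KRT80 and -2.63 for KRT81. The difference was smallest for KRT80 and largest for KRT18, and KRT8 minus KRT18 was 1.92 above its parental mean on this array. The sum of the 6 log2 values was 48.9 to 49.3 on the other parental arrays, 54.4 to 55.8 on the resistant arrays and 32.0 on A03.

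Markers of luminal breast cells were examined next. Their list was chosen with earlier results of these data known, so it is no independent check of the label luminal. Of 20 genes on the list, 15 were tested, 3 rose and none fell at FDR 5% (1.2% of all tested probe sets passed in either direction). CD24, a surface glycoprotein of luminal cells, rose by 3.59 (limma adjusted p = 5.47e-27), ERBB3, a receptor for neuregulins, rose by 1.85 (limma adjusted p = 1.21e-06), and MUC1, the mucin of the apical surface, rose by 1.26 (limma adjusted p = 0.00789). Of the 20 genes, 8 were higher, 6 of them tested, and 2 lower on every resistant array. Of all tested probe sets 12.9% were higher, and the share that were lower was not counted. The 2 lower genes, ELF5 and AGR2, lay within the negative controls on all 5 arrays, as did KIT among the higher ones. The 8 included GATA3 and, without a call, CLDN4 (0.97) and ALDH1A3 (0.92). The transcription factors that define hormone-sensing luminal cells had smaller changes, with 0.18 for GATA3, -0.18 for FOXA1 and -0.43 for ESR1. FOXA1 and ESR1 did not pass FDR 5%, and GATA3 was removed by the filter. ESR1 lay within the negative controls on 3 of the 5 arrays. PGR, ELF5, KIT, AGR2 and TFF1 lay within the negative controls on all 5 arrays. The median change was 0.02 over all 20 genes of the list and -0.09 over those tested. Their summed log2 values were 73.3 to 75.0 in MCF10.AT1 and 81.0 to 84.1 in MCF10.AT1-R.

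Markers of basal breast cells were counted as well, on a list of 9 that holds 3 of the basal keratins named above. All 9 were higher on every resistant array (12.9% of all tested probe sets), 6 passed FDR 5% (0.758% of them, in this direction), and the median change was 1.75. Beside KRT17, KRT14 and KRT5 (1.71), the 6 included the laminin chain LAMA3 (2.06) and the basal transcription factor TP63 (1.74). Their summed values were 65.9 to 66.5 in MCF10.AT1 and 82.0 to 82.7 in MCF10.AT1-R, without overlap. MCF10.AT1-R thus had higher values of part of both marker lists, 3 of 20 luminal and 6 of 9 basal genes. The part of basal cells in the values of the 6 keratins was not tested.

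Of 4 general epithelial genes 3 rose (0.758% of all tested probe sets), among them CDH1, the cadherin of epithelial junctions, by 1.30 (limma adjusted p = 0.00481) and ESRP1, an epithelial splicing factor, by 1.17 (limma adjusted p = 0.0196). EPCAM, an epithelial adhesion molecule, had a change of 0.78 (limma adjusted p = 0.341). Of 6 genes of cornifying keratinocytes 2 rose (against the same share), KRT1 and CDSN (1.14), and their summed values were 18.6 in MCF10.AT1 and 20.9 to 22.6 in MCF10.AT1-R. FLG, the precursor of filaggrin, lay within the negative controls on all 5 arrays. Among 6 fibroblast markers DCN, a matrix proteoglycan, fell by 2.15 (limma adjusted p = 3.88e-09), and it was the only one of them tested. The other 5 had changes from -0.16 to 0.15, so the fall of the summed values, from 27.0 to 27.7 in MCF10.AT1 to 24.8 to 25.6 in MCF10.AT1-R, was that of DCN. Among 3 endothelial markers PECAM1 fell by 1.12 (limma adjusted p = 0.0308), and of 3 leukocyte markers none passed.

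Proteins that bind keratin filaments or regulate them were taken as a list of 14 genes, of which 10 were tested. At FDR 5%, 2 rose and 1 fell, against 1.2% of all tested probe sets in either direction. DSP, the desmosomal plaque protein that anchors keratins, rose by 1.41 (limma adjusted p = 0.00113). SFN, the 14-3-3 protein of epithelia, rose by 1.28 (limma adjusted p = 0.00586). VIM, the intermediate filament of mesenchymal cells, was on the list as a filament of another class, and it fell by 1.64 (limma adjusted p = 3.95e-05). Its log2 values were 7.43 and 7.53 in MCF10.AT1 and 5.69, 5.57 and 6.25 in MCF10.AT1-R, without overlap and opposite to the keratins past FDR 5%. Of the 14, 8 were higher, 7 of them tested, and 2 lower on every resistant array. Of all tested probe sets 12.9% were higher, and the share that were lower was not counted. The largest changes without a call were those of the linkers EPPK1 (1.01, limma adjusted p = 0.0792) and PPL (0.98, limma adjusted p = 0.0984). PLEC, the large linker of keratins to hemidesmosomes, was at 6.83 and 6.82 in the parental and 6.76, 6.96 and 6.96 in the resistant line, a change of 0.07. The median change of the 14 was 0.31.

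Of 11 epithelial transcription factors 2 rose and none fell at FDR 5%, which 1.2% of all tested probe sets passed. EHF, an ETS factor of epithelia, rose by 1.72 (limma adjusted p = 1.25e-05), and OVOL2, a repressor of mesenchymal genes, rose by 1.16 (limma adjusted p = 0.0212). The grainyhead factors GRHL2 and GRHL3 had changes of 0.84 and 0.86 with all resistant arrays higher, GRHL1 lay within the negative controls on all 5 arrays, and KLF4, a factor of epithelial differentiation, had a change of -0.82 with all of them lower, none past FDR 5%. The median change of the list was 0.52.

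**Figure D5:**
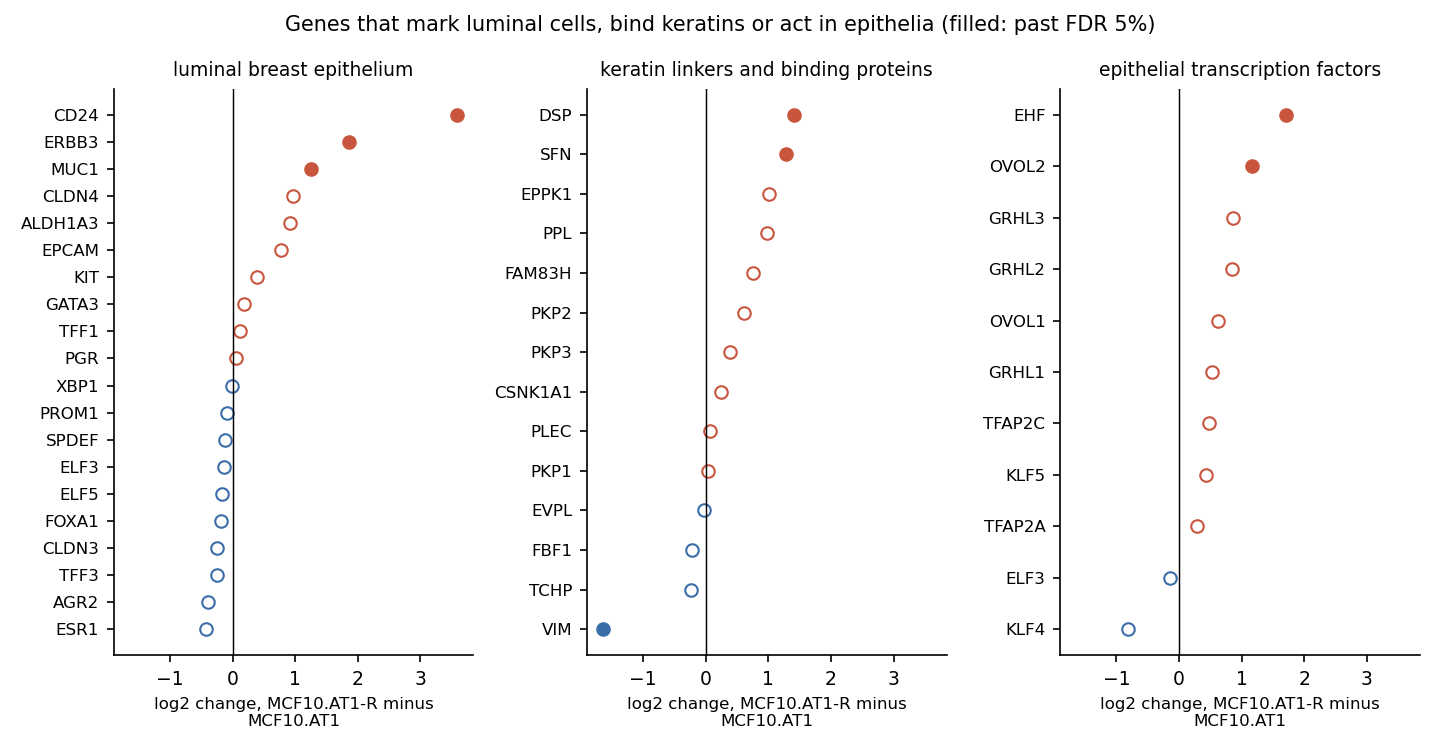
Log2 change from MCF10.AT1 to MCF10.AT1-R (x axis) of the luminal markers, of the keratin linkers and binding proteins and of the epithelial transcription factors, with genes past FDR 5% filled and higher genes in red. CD24 at 3.59 and VIM at -1.64 are the extremes, and ESR1, FOXA1 and GATA3 lie at -0.43, -0.18 and 0.18.

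The genes most like each called keratin over the 5 arrays were found by the root mean square difference of mean-centered log2 values, among 36080 other tested symbols. For KRT19 these were CTSV, a lysosomal cathepsin (0.045), TTC9 (0.091) and SAA1, an acute phase protein (0.104), with changes of 2.83, 3.00 and 2.78. For KRT8 they were F11R, a tight junction adhesion molecule (0.032), SLC44A3 (0.042) and SP110, a nuclear body protein (0.049), with changes of 1.06, 1.07 and 1.05. For F11R, SLC44A3 and SP110 the limma adjusted p was 0.0521, 0.0497 and 0.0575, so that genes with nearly the same pattern as KRT8 fell on both sides of FDR 5%.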

How the data were processed

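The authors made log2 values by RMA from Clariom D arrays of both lines and deposited them for all 6 arrays, unfiltered, in a table of 138745 probe sets, of which 2995 are controls and 135750 measure transcripts. The line of each column was read from the array names in the study's principal component plot. Versions of the upstream tools and the genome build are not given in the sources used here, so no coordinates are printed. A filter chosen here kept probe sets with a mean (5 arrays) over the median of 1.88 and an SD over the lowest 25% (0.18). The fit used limma 3.58.1 (lmFit, eBayes; R 4.3.3) and was tested on simulated data. KRT7 (SD 0.182) passed the SD limit narrowly. The members and lists were chosen with earlier results of these data known. All members were named with every probe set, and from each list at most 6 genes past FDR 5% without overlap, the rest by counts and ranges. Neighboring genes and uncalled list genes with values in the text (such as EPPK1, PPL, PLEC, GATA3, FOXA1, ESR1, KLF4 and the GRHL factors) were chosen after their values were seen. A gene counted in a list is not reported here by itself. Alternatives changed arrays, array weights, filters, variance model, normalization, a floor at the negative controls, the FDR and the handling of several probe sets; the low-expression filter with the trend option is 1 of these.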

Additional observations from a re-analysis of the deposited data

How the results depend on the processing

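No member changed direction in 87 recomputed values, of which 72 kept their side of FDR 5%, 9 lost it and 6 gained it. Most of these fits could not have reversed a direction. Changing only the filter, the variance model or the floor left each change the same. Leaving out 1 array could not reverse the 5 members whose lines did not overlap. KRT8 had a change of 1.01 to 1.20 with 1 array left out and was lost in 4 of those 5 fits. It was also lost with the low-expression filter alone (1.11, adjusted p = 0.0898), without a filter (1.11, adjusted p = 0.126) and after quantile normalization of the 5 arrays (1.07, adjusted p = 0.0518), each of which left 1 member past FDR 5%. With all 6 arrays KRT8 was at 2.09 (adjusted p = 0.777) and KRT19 at 3.46 (adjusted p = 0.0868), with 0 members and 26 probe sets past FDR 5%; KRT18 was at 2.47, KRT7 at 1.75, KRT81 at 1.499 and KRT80 at 0.56. KRT80 had a change of 0.16 to 0.59 with 1 array left out. With the trend option, and also with that option and the low-expression filter alone, KRT18 (0.85), KRT7 (0.31) and KRT81 (0.62) gained the call, which made 5 members. In the latter fit the adjusted p was 4.61e-05 for KRT18, 0.00896 for KRT7 and 0.0033 for KRT81. The causes were not tested. With 1 array left out, 1 to 2 members passed. The 620 probe sets past FDR 5% became 271 to 595 with 1 array left out (271 without A02 and 314 without A01), 182 with the low-expression filter alone, 177 without a filter, 1377 with the trend option, 1086 with both of these and 272 with a floor at the negative controls. KRT7 was not tested without A01, after quantile normalization or with the mean of its probe sets, since the SD filter removed it. No paired analysis was possible because the columns carry no replicate number. The number of arrays and, for dim genes, the signal over the negative controls limit the precision.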
